A study of Mus musculus with 9 samples.

Results

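Ribosome biogenesis and nucleolar genes were followed in mouse muscle cells as a set of 34 genes given by symbol. No measured value of these libraries entered the rule itself, but earlier results of these data were known when the genes were chosen. All 34 were found, among 46078 genes listed for the cultured cells and among 38293 genes listed for muscle tissue. They were 1 transcription regulator of ribosome synthesis (Myc), 4 genes of RNA polymerase I and its factors, 3 of the box C/D snoRNP, 4 of the box H/ACA snoRNP, 5 of nucleolar organization, 11 of small subunit processing and 6 of large subunit processing. The genes lay on 16 chromosomes, and all were protein-coding in the annotation.

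Ribosomes are assembled in the nucleolus around the ribosomal DNA repeats. RNA polymerase I, helped by the factors that Ubtf and Rrn3 encode, transcribes a precursor RNA there, snoRNPs methylate or pseudouridylate it at sites set by their guide RNAs, and large assemblies of processing factors cut and fold it into the 2 subunits. MYC is a transcription factor that, as a dimer with MAX, binds E boxes and is known for raising transcription of many genes of this pathway, and making ribosomes is a large cost of growing and dividing cells and of muscle fibers that grow.

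RNA sequencing libraries of gastrocnemius muscle (GAS, 3 biological replicates), of primary myoblasts (MB, the dividing precursors of muscle fibers, 2), of myotubes (MT, 2) and of MB given lactate (2) were compared. All carried the strain label C57BL/6. GAS came from female mice aged 8 to 12 weeks and was sequenced as poly(A) RNA, and as whole tissue it also holds vessels, nerves, immune and connective tissue cells. MB were grown on Matrigel in DMEM and Ham's F-10 with 10% horse serum, 20% fetal bovine serum and 10 ng/ml basic FGF, and became MT over 3 days in DMEM with 2% horse serum after reaching 80% confluency, so that MT and MB differed in medium, density and time as well as in cell state. Lactate-treated MB received sodium-L-lactate at 10 mM, and control MB an equal volume of PBS, its solvent. The cultured libraries were made from 5 ng of total RNA each by Smart-seq2, which amplifies full-length cDNA before tagmentation. The labels call the samples biological replicates without naming separate cultures or animals, and p-values therefore measure the spread between these libraries.

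Short stretches of promoter sequence are shown first, because Myc had the largest change of the 34 genes between MB and MT and because the E box CACGTG is the sequence that MYC and MAX bind. RefSeq promoter windows of GRCm38.p6, from 250 bases before to 50 bases after a gene's start, were matched by symbol for 28 of the 34 genes. The window of 6 genes (Bop1, Fbl, Rrp12, Npm1, Tcof1 and Myc) was not used here. The E box, a palindrome searched on both strands, stood in the windows of 6 of the 28 genes (21.4%), against 8.09% of all 27025 genes with a window and 11.9% of the 9546 with a window that were tested between MT and MB. The stretches around each E box follow, 5′ to 3′ on the strand of the gene, with the E box in capitals, for Nop2 (chr6:125131811-125131840, plus strand), Utp20 (chr10:88826765-88826789, minus), Pes1 (chr11:3963965-3963994, plus), Utp18 (chr11:93885769-93885798, minus), Wdr43 (chr17:71616220-71616249, plus) and Rrn3 (chr16:13780472-13780501 and chr16:13780639-13780668, plus).
Nop2: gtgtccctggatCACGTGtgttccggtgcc
Utp20: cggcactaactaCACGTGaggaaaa
Pes1: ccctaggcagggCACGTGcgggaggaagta
Utp18: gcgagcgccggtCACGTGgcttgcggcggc
Wdr43: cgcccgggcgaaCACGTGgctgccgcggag
Rrn3, first E box: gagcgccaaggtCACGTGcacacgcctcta
Rrn3, second E box: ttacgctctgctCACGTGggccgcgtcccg

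The E boxes began 60 bases before the RefSeq start site for Nop2, 20 bases before it for Utp18 and at 215 and 48 bases before it for Rrn3. Those of Pes1, Wdr43 and Utp20 lay in the first transcribed bases, beginning at positions 3, 18 and 38. The 250 bases upstream of the start of Nop2 (chr6:125131633-125131882, plus strand) and of Rrn3 (chr16:13780449-13780698, plus strand) are printed as a pair, since Nop2 was among the genes with the largest fall in MT and Rrn3 among those with the smallest, while both hold the E box.
Nop2, upstream: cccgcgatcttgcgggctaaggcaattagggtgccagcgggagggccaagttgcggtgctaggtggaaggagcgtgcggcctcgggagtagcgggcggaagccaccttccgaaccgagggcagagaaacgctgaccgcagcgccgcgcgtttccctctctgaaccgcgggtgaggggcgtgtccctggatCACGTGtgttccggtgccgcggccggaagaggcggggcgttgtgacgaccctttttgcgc
Rrn3, upstream: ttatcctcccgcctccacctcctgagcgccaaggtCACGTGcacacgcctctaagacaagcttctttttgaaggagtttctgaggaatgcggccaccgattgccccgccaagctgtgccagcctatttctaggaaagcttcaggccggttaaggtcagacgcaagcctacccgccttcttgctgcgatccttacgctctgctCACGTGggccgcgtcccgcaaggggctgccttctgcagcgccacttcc

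Other motifs were counted in the same windows on both strands, and none of the motifs contains another. The GC box GGGCGG was found for 19 of the 28 genes (67.9%), against 38.2% of all genes with a window and 69.8% of those tested. The ETS motif CCGGAAGT was found for 4 (14.3%), against 4.31% and 9.44%. TATAAA was found for 2 (7.14%), against 15.7% and 8.82%. These matches describe the letters of a window and are not evidence of binding.

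The cultured libraries differed in ways that the groups did not account for. Between 5198247 and 10839516 counts were obtained per cultured library and between 19307793 and 19941574 per GAS library, and 3 counts correspond to at most 0.577 CPM in cultured cells and 0.155 CPM in GAS, for counting error only. Genes with a count numbered 28599 in MT replicate 1 and between 15548 and 17965 in the other cultured libraries. The ribosomal RNA gene CT010467.1 held 9.20% of all counts in MB replicate 1, 13.8% in lactate-treated replicate 1 and at most 0.575% in the other cultured libraries. As a check of the labels, 8 of 8 myotube marker genes were called higher in MT than in MB (11% of all genes tested). Of 5 myoblast genes, Pax7 alone was called lower (6.86% of all genes tested).

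Levels are given as counts scaled to library size (CPM) after TMM normalization, which was done separately for GAS and for cultured cells. CPM of a gene are comparable between the libraries within either of these sets. RPKM divides CPM by the length of all annotated exons of a gene. It puts genes on a common scale but depends on the annotated length. CPM are relative to all RNA counted in a library, and in bulk samples fewer cells of a type and less RNA per cell cannot be told apart. The 34 genes together took 0.555% and 1.01% of the counts of the MB libraries and 0.590% and 1.04% of those of lactate-treated MB. In MT they took 0.203% and 0.279%, and in the GAS libraries between 0.105% and 0.106%. The share of both MT libraries was thus below that of every MB library, treated or not.

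**Figure D1:**
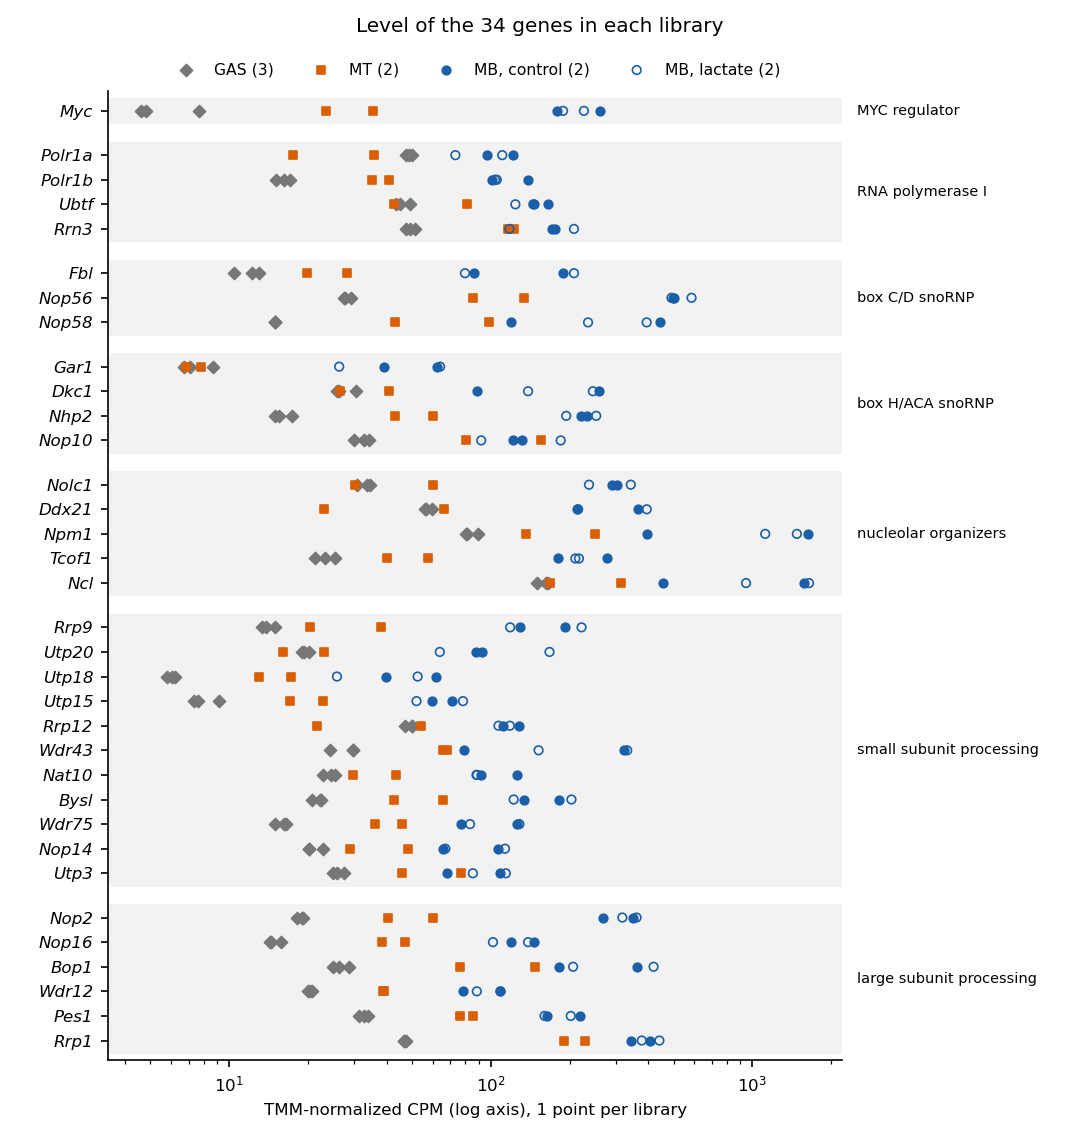
TMM-normalized CPM (x axis, log scale) of each of the 34 genes (y axis, by role) in every library, with GAS as gray diamonds, MT as orange squares, control MB as filled and lactate-treated MB as open blue circles. In 32 of the 34 genes both control MB libraries lie to the right of both MT libraries, and open and filled circles intermingle in most genes. GAS was normalized apart from the cultured cells and made with another protocol, so its points are not compared with theirs.

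Most of the 34 genes were called lower in MT than in MB. The quasi-likelihood test of edgeR was run on 12921 genes, and those with an adjusted p under 0.05 whose absolute log2FC exceeded 0.5 were called. All 34 genes passed the filter on low counts, 21 of them were called lower in MT and 0 higher, where 6.86% of all genes tested were called lower and 11% higher. The log2FC was below 0 for all 34 genes (47.7% of all genes tested), with a median of -1.74, a 3.35-fold difference, against a median of 0.07 over all genes tested. In 32 of 34 genes both MB libraries were above both MT libraries (28.7% of all genes tested). The exceptions were Nop10 and Utp3.

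The 2 MT libraries differed in 1 direction for most of the set, with 31 of the 34 genes higher in MT replicate 2 than in replicate 1. The exceptions were Myc, Gar1 and Utp18, and the share over all genes was not counted. The number of calls depended most on MT replicate 1. Without this library 2 of the 34 genes (Myc and Gar1) were called lower, against 2.06% of all genes tested, and the median log2FC was -1.56. Without MT replicate 2 the count was 20 (4.26% of all genes) and the median -2.36. Without MB replicate 1 it was 27 (5.93% of all genes) and without MB replicate 2 it was 23 (8.34% of all genes). With 1 library left in a group, its spread is assumed to be that of the other. A log2FC below 0 was kept by 33 of the 34 genes under each of 12 alternatives, Nop10 being the exception.

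**Figure D2:**
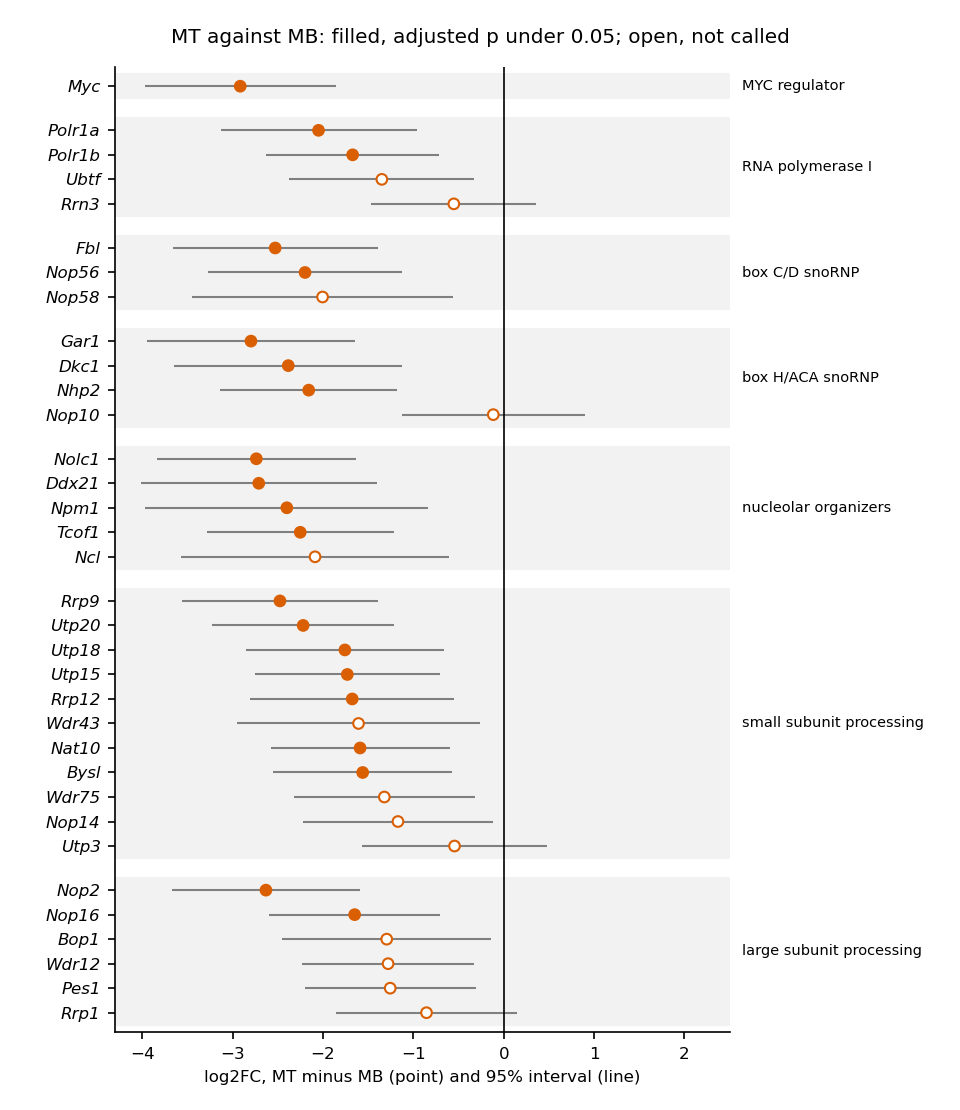
log2FC of MT minus MB (x axis) for the 34 genes by role, with the 95% interval of edgeR's fit as a line; filled points passed an adjusted p under 0.05 and open points did not. All points lie left of 0, from -2.92 for Myc to -0.12 for Nop10.

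Myc (chr15:61985391-61990374 of mm10, plus strand) had the largest difference of the set. Its CPM were 261 and 179 in the MB libraries and 35.4 and 23.4 in MT. Both MT libraries were far below both MB libraries, and the level of Myc in MT was 7.55-fold lower (log2FC -2.92, SE 0.48, adjusted p = 0.00282 in the quasi-likelihood test of edgeR). It was called under each of the 12 alternatives, as was Gar1.

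Of the 4 genes of RNA polymerase I and its factors, the 2 that encode catalytic subunits were called lower. Polr1a (chr6:71909053-71984935), which encodes the largest subunit of the enzyme, had 122 and 97.1 CPM in MB and 17.6 and 35.8 CPM in MT (log2FC -2.05, SE 0.49, adjusted p = 0.0167 in the quasi-likelihood test of edgeR). Polr1b, the second largest subunit, had a log2FC of -1.67 (adjusted p = 0.0235 in the same edgeR test). Neither factor was called. Ubtf, which binds the ribosomal DNA and keeps it open, had a log2FC of -1.35 (adjusted p = 0.0675, edgeR). Rrn3 (chr16:13780708-13814839), the initiation factor that joins the polymerase to the promoter, had 171 and 176 CPM in MB and 116 and 123 CPM in MT. The 4 values of Rrn3 did not overlap between groups, but the distance was small (log2FC -0.55, 95% interval -1.47 to 0.36). Polr1a shares 185 exonic bases with a gene on the opposite strand, and no source says whether counting was strand-specific.

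The box C/D snoRNP, which methylates the ribose of ribosomal RNA, had 2 of its 3 genes called lower in MT. Fbl (chr7:28169710-28179269), its methyltransferase fibrillarin, had 188 and 86.6 CPM in MB and 19.8 and 28.3 CPM in MT, a 5.77-fold lower level (log2FC -2.53, SE 0.51, adjusted p = 0.00785 in the quasi-likelihood test of edgeR). Nop56, a core scaffold protein of the particle, had 501 and 498 CPM in MB, the closest agreement between MB libraries in the set, and 85.3 and 134 CPM in MT (log2FC -2.20, adjusted p = 0.0115, edgeR). Its partner Nop58 (chr1:59684971-59719044) had a log2FC as large as -2.00 without passing (SE 0.65, adjusted p = 0.0577, edgeR). It had 119.7 and 443 CPM in MB and 43.2 and 98.7 CPM in MT. MB replicate 1 was close to MT replicate 2 for Nop58, and MB replicate 2 was far above all other MB and MT libraries. Nop56 and Nop58 carry snoRNA genes within their bounds, which share up to 100 and 84 bases with their annotated exons.

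In the box H/ACA snoRNP, which turns uridines of ribosomal RNA into pseudouridine, 3 of 4 genes were called lower. Gar1 (chr3:129824912-129831396) had 62.1 and 39.2 CPM in MB and 7.81 and 6.85 CPM in MT. Gar1 encodes a core protein of the particle. This 6.95-fold difference was the second largest of the 34 (log2FC -2.80, SE 0.52, adjusted p = 0.00529 in the quasi-likelihood test of edgeR). Dkc1, the pseudouridine synthase dyskerin, and Nhp2, an RNA-binding core protein, had log2FC of -2.38 and -2.16 (adjusted p = 0.0167 and 0.00829, edgeR). Nop10, the smallest core protein, was not called. Nop10 (chr2:112261926-112263269) had 121 and 131 CPM in MB, and its MT libraries lay on either side of these with 80.5 and 155 CPM (log2FC -0.12, 95% interval -1.13 to 0.89, adjusted p = 0.891, edgeR). Without MT replicate 1 its log2FC was 0.29. A test of Nop10 against the other 3 genes was not made.

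Among the nucleolar organizers, 4 of 5 genes were called lower. Nolc1 (chr19:46075863-46085530), a phosphoprotein that carries snoRNPs and binds RNA polymerase I, had 291 and 304 CPM in MB and 30.2 and 59.9 CPM in MT (log2FC -2.74, SE 0.50, adjusted p = 0.00488 in the quasi-likelihood test of edgeR). Ddx21, a nucleolar RNA helicase, had 213 and 365 CPM in MB and 23.0 and 66.3 CPM in MT (log2FC -2.71, adjusted p = 0.0108, edgeR). Tcof1, the treacle protein of the nucleolus, had a log2FC of -2.25 (adjusted p = 0.00881, edgeR). On the log2 scale, the MB libraries of these 3 genes lay closer to each other than to either MT library.

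Npm1 and Ncl, which encode abundant nucleolar proteins, had the largest SE of the 34 genes. Npm1 (chr11:33152287-33163206), nucleophosmin, had 396 and 1627 CPM in MB and 137 and 251 CPM in MT (log2FC -2.40, SE 0.71, adjusted p = 0.04 in the quasi-likelihood test of edgeR). Ncl (chr1:86344719-86359400), nucleolin, had 457 and 1576 CPM in MB and 169 and 314 CPM in MT, and was not called (log2FC -2.09, SE 0.67, adjusted p = 0.055, edgeR). For both, the MB libraries stood 4.11-fold and 3.45-fold apart, and all MT values were below the lower of them. Npm1 has 4 processed pseudogenes at 95% identity or more over at least 200 bases, of which 2 were listed for cultured cells, with counts that came to 4.24% of those of Npm1. How reads with several alignments were counted is not given, so the level of Npm1 is uncertain. The listed copies of Nop56, Pes1, Wdr12 and Ddx21 held at most 1.67% of the counts of their gene. Ncl also shares up to 133 exonic bases with a snoRNA gene on its own strand.

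Small subunit processing held 11 genes, of which 7 were called lower. Rrp9 (chr9:106475963-106485424), the protein specific to the U3 snoRNP, had 192 and 129 CPM in MB and 20.4 and 37.9 CPM in MT, the largest difference of the group (log2FC -2.48, SE 0.49, adjusted p = 0.00717 in the quasi-likelihood test of edgeR). Utp20, a long scaffold protein of the small subunit processome, had 92.5 and 87.9 CPM in MB and 16.0 and 23.1 CPM in MT (log2FC -2.22, adjusted p = 0.00837, edgeR). Utp18 and Utp15, also proteins of the processome, had log2FC of -1.76 and -1.73. Rrp12, which takes part in export of the subunits, Nat10, the RNA cytidine acetyltransferase of the nucleolus, and Bysl, bystin, an assembly factor of the small subunit, had log2FC of -1.68, -1.59 and -1.56. These 5 genes had adjusted p between 0.0266 and 0.0453 in the same edgeR test, close to the threshold. Bysl shares 361 exonic bases with Ccnd3 on the opposite strand.

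The 4 genes of small subunit processing that were not called had log2FC between -1.61 and -0.54. Wdr43 and Wdr75, proteins that join the processome early, had log2FC of -1.61 and -1.32 (adjusted p = 0.0931 and 0.0675, edgeR). Wdr43 had 78.8 and 323 CPM in MB and 65.5 and 67.8 CPM in MT. Its MB replicate 1 was near the MT libraries and its MB replicate 2 far above them. Nop14, an assembly factor of the small subunit, had a log2FC of -1.17 (adjusted p = 0.117, edgeR). Utp3 (chr5:88554462-88556090, a single exon), a nucleolar protein of the processome, had 68.1 and 109 CPM in MB and 45.7 and 76.7 CPM in MT, with overlap between the groups (log2FC -0.54, 95% interval -1.57 to 0.48).

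Of the 6 genes of large subunit processing, 2 were called lower. Nop2 (chr6:125131909-125144753), a methyltransferase of the large subunit RNA whose promoter is printed above, had 349.6 and 269 CPM in MB and 40.6 and 60.2 CPM in MT, a 6.20-fold lower level (log2FC -2.63, SE 0.47, adjusted p = 0.00445 in the quasi-likelihood test of edgeR). Nop16, an assembly factor, had a log2FC of -1.65 (adjusted p = 0.0234, edgeR). The proteins of Bop1, Pes1 and Wdr12 form 1 complex, and the log2FC of these genes were -1.29, -1.26 and -1.28, with SE of 0.52, 0.43 and 0.43. They thus differed from each other by less than their errors, and none passed (adjusted p = 0.114, 0.0665 and 0.0643, edgeR). Rrp1 (chr10:78400384-78413043), a nucleolar protein of large subunit processing, had 407 and 345 CPM in MB and 189.7 and 229.9 CPM in MT, with no overlap and the smallest difference of the group (log2FC -0.85, 95% interval -1.85 to 0.14).

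The 13 genes that were not called were not shown to be unchanged. Of them, 7 had an adjusted p under 0.1, and the 95% interval of each of the 13 extended below a log2FC of -1. With the DESeq2 Wald test in place of edgeR, 28 of the 34 genes were called lower (10% of all genes) and 0 higher. The 6 genes with an E box in their window had a median log2FC of -1.68 and the 22 genes with a window and no E box a median of -1.70.

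The difference between MB replicates followed the GC content of the transcripts. Across the 34 genes, the log2 ratio of MB replicate 2 over replicate 1 had a Pearson r of -0.71 with GC content, which ran from 40.1% to 58.3%, and across all genes tested the r was -0.66. In lactate-treated MB the r across the 34 genes was -0.51 and between the MT libraries 0.05. The points of each panel share their libraries, and genes are not independent. Npm1, Nop58, Wdr43, Ncl and Dkc1 were between 2.94-fold and 4.11-fold higher in MB replicate 2, and Fbl was 2.17-fold higher in MB replicate 1. The log2FC of MT over MB had an r of -0.19 with GC content across the 34 genes. The part of base composition or of ribosomal RNA in the results was not tested beyond leaving out the ribosomal RNA genes, which again gave 21 genes called lower (6.89% of all genes).

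**Figure D3:**
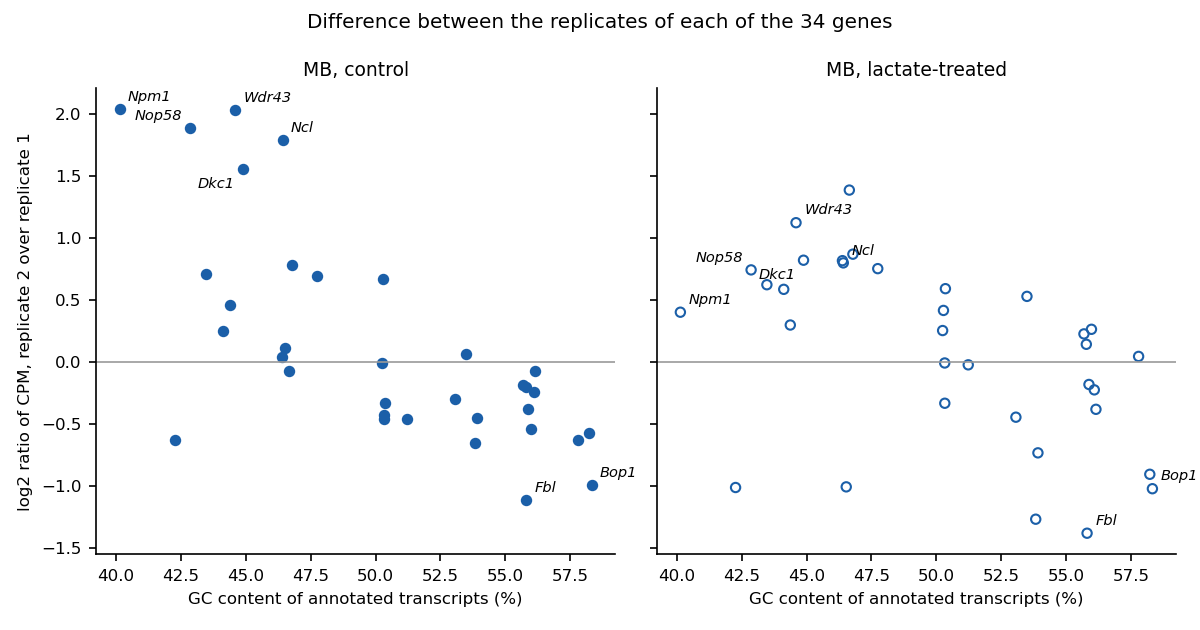
log2 ratio of CPM of replicate 2 over replicate 1 (y axis) against the GC content of the annotated transcripts in percent (x axis), for control MB (left) and lactate-treated MB (right), 1 point for each of the 34 genes. In control MB the 5 highest points, Npm1, Wdr43, Nop58, Ncl and Dkc1, lie between 1.55 and 2.04, and the lowest, Fbl, at -1.11.

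Genes of the same pathway outside the set were called lower in MT in part. Wider lists of 114 genes, chosen with results of these data known, were all tested, and 35 were called lower in MT and 0 higher, where 6.86% of all genes tested were called lower and 11% higher. Most of the 114 did not pass. The log2FC was below 0 for 110 of the 114 (47.7% of all genes tested), with a median of -1.11. Among other genes of small subunit processing 16 of 39 were called lower, and Rcl1, an RNA cyclase-like protein, had the largest difference, with 142 and 116 CPM in MB and 9.80 and 20.2 CPM in MT (log2FC -3.12, adjusted p = 0.00282, edgeR). Wdr46 and Heatr1 followed with log2FC of -2.44 and -2.39. Among other genes of large subunit processing 12 of 44 were called lower, led by the assembly factors Ppan, Mrto4 and Rrs1 with log2FC of -2.60, -2.56 and -2.43.

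Calls were also made in the smaller lists, against 6.86% of all genes tested called lower. Of the genes of snoRNP assembly, 3 of 9 were called lower, and these were Ruvbl2 (-2.32) and Ruvbl1 (-2.06), which encode paired ATPases, and Snu13 (-1.81), a protein that binds the snoRNA itself. Of the other subunits and factors of RNA polymerase I, 2 of 11 were called lower, Polr1e (-2.32) and Polr1c (-1.79). Of the RNA exosome, which trims precursor RNA, 2 of 11 were called lower, Exosc2 (-2.25) and Exosc8 (-1.66), all values being log2FC. The medians of the 5 lists lay between -1.26 and -0.98, all below the median of all genes tested.

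Of the partners and antagonists of MYC, 9 genes were tested, with a median log2FC of 0.34. In MT, 2 of them were called higher and 0 lower, where 11% of all genes tested were called higher and 6.86% lower. The list of 9 is too small for its count to be set against these shares. Mxd1 and Mxd4 encode proteins that pair with MAX in place of MYC and repress transcription. Mxd1 had 4.57 and 3.42 CPM in MB and 38.8 and 27.3 CPM in MT (log2FC 3.03, SE 0.56, adjusted p = 0.00529 in the quasi-likelihood test of edgeR). Mxd4 had 5.49 and 3.08 CPM in MB and 23.7 and 22.8 CPM in MT (log2FC 2.43, adjusted p = 0.0174, edgeR). Both were thus at low levels in MB and above them in each MT library.

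The other partners did not pass the test. Mxi1, of the same family, had 23.2 and 5.99 CPM in MT and 2.61 and 3.08 CPM in MB (log2FC 2.34, adjusted p = 0.0571, edgeR). Max, the common partner, had 27.2 and 16.0 CPM in MB and 9.72 and 15.7 CPM in MT (log2FC -0.78). Mxd3 and Mycl had log2FC of -1.01 and -1.47, and Mnt, Mga and Mlx of 0.34, 0.49 and 0.04. Mycn had no count in either MB library and was not tested.

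**Figure D4:**
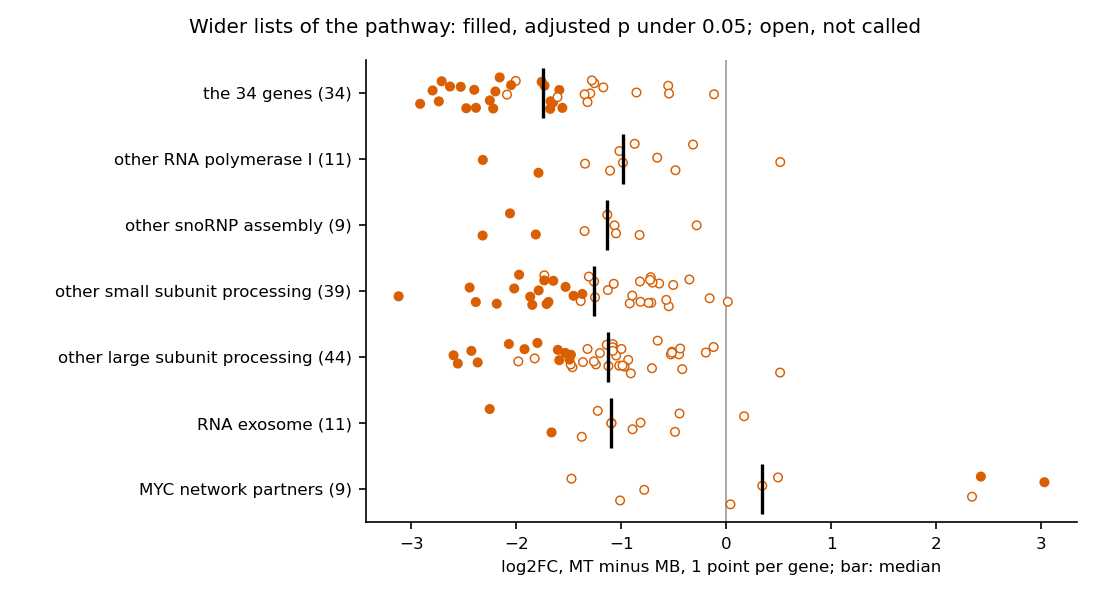
log2FC of MT minus MB (x axis) for the 34 genes and for 6 wider lists (y axis, number of genes tested in parentheses), 1 point per gene, filled where the adjusted p was under 0.05, with the median as a bar. The bars of the 5 lists of ribosome synthesis lie between -1.26 and -0.98, and that of the MYC network partners at 0.34.

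Genes of cell division moved in the same direction as the 34 genes. Of 10 proliferation markers, 9 were called lower in MT (6.86% of all genes tested), with a median log2FC of -2.65. The summed level of the 10 was 3084 and 3340 CPM in MB and 582 and 560.3 CPM in MT. The defining marker Mki67 was above 0 in every cultured library and was not called. Cell division, medium, time and fusion moved together between MB and MT, and their parts in the levels of the 34 genes cannot be told apart in this design. Some genes listed as markers of other cells were also higher in MT, where 11% of all genes tested were called higher. Of 7 fibro-adipogenic genes 4 were tested and 2 (Dcn and Gsn) called higher, and the summed level of the list was 1935 and 1151 CPM in MT and 384 and 136 CPM in MB. Of 5 smooth muscle and pericyte genes 3 were tested and 2 (Acta2 and Pdgfrb) called higher, with 1395 and 3505 CPM in MT and 498 and 271 CPM in MB. Of 7 leukocyte genes 3 were tested, of which 1 (Itgam) was called higher and 1 had a log2FC below 0. The list summed to 31.6 and 13.6 CPM in MT and 16.6 and 15.5 CPM in MB, so that MT replicate 2 was below both MB libraries. Ptprc was at 0 in both MB libraries and in MT replicate 2. Endothelial genes summed to 28.4 CPM in MT replicate 1 and to at most 1.6 CPM in the other cultured libraries, Schwann cell genes to 106 and 151 CPM in MT and 55.9 and 39.2 CPM in MB, and adipocyte genes to at most 1.3 CPM. Whether the counts of these listed genes came from other cells or from the myotubes themselves was not tested. The part of other cells in the levels of the 34 genes was not tested either.

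No difference of the 34 genes between lactate-treated and control MB was detectable at this depth and with 2 libraries a group. The comparison of lactate-treated with control MB used the same control libraries as that of MT, so the values of both are not independent. Of 11804 genes in the quasi-likelihood test of edgeR, 0 were called higher (0%) and 0 lower (0%), and all 34 genes were among those tested. At an unadjusted p under 0.05, edgeR gave 5 genes in all (0.0424%) and 0 of the 34, and the DESeq2 Wald test gave 3 genes (0.0254%) and again 0 of the 34. By the study's rule for lactate, which asks for a nominal p under 0.01 and a log2FC beyond 0.5 in either direction, the call count was 0 over all genes (0%) and 0 in the set. The study itself reported a small group of genes by this rule, more of them higher than lower with lactate. Why its count differs from the one found here was not tested.

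The log2FC of the 34 genes ran from -0.38 for Utp18 to 0.39 for Utp20, with a median of 0.06, against a median of -0.00343 over all genes tested. It was below 0 for 14 genes (50.5% of all genes tested) and above 0 for 20. The 95% intervals of single genes reached from -1.66 to 2.15, and 3 of the 34 intervals lay within -1 to 1, so that changes of 2-fold were not excluded for the other 31. These intervals come from the fit without the replicate number, whose common spread between libraries (biological coefficient of variation) was 0.455. With the replicate number as a block this spread was 0.225, and 0 of the 34 genes had an unadjusted p under 0.05 in edgeR's test. In 0 of the 34 genes both lactate-treated libraries were above both control libraries (3.47% of all genes tested), and in 2 both were below (7.56% of all genes tested). These were Ubtf and Nat10.

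**Figure D5:**
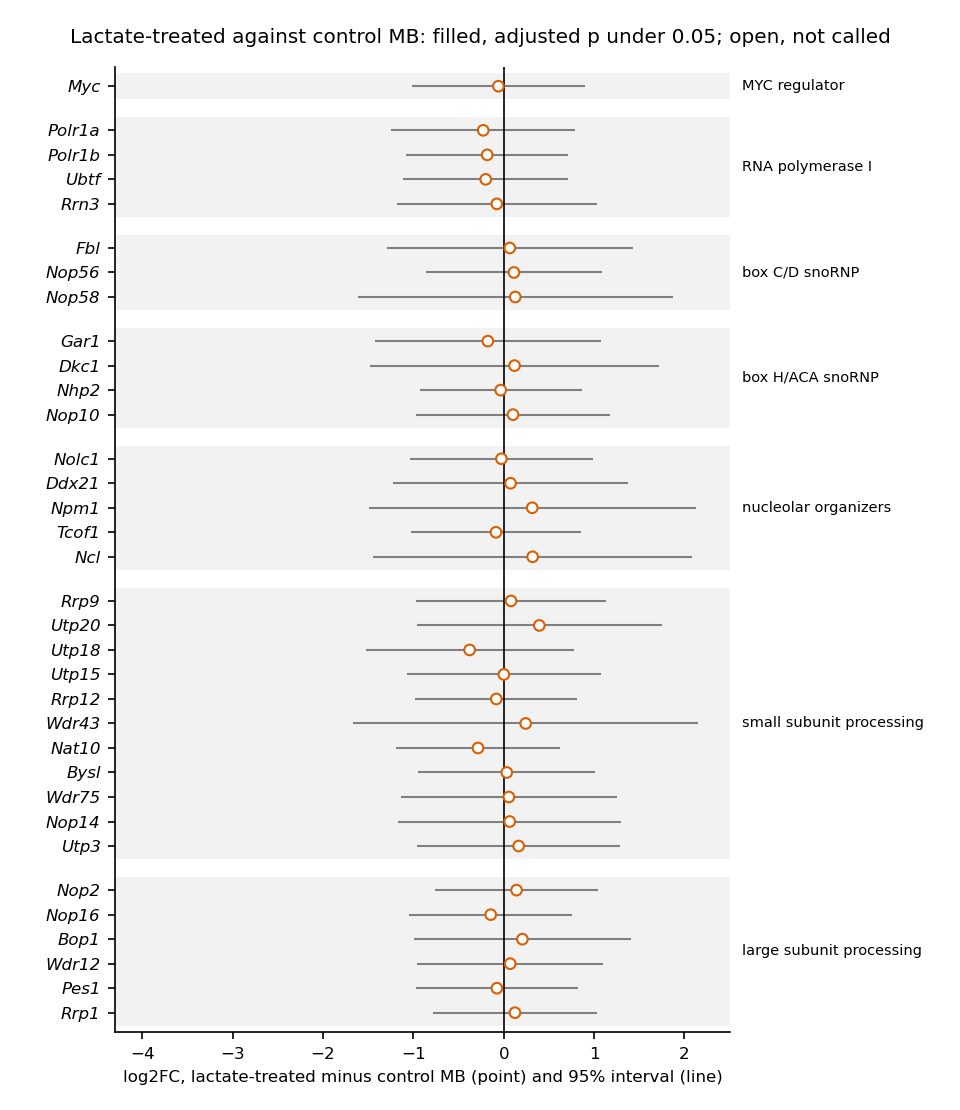
log2FC of lactate-treated minus control MB (x axis) for the 34 genes by role, with the 95% interval as a line, on the same axis as the plot of MT against MB. All points lie between -0.38 and 0.39, every interval includes 0, and no point is filled.

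The values of single libraries overlapped between the groups for 32 of the 34 genes. Myc had 189 and 227 CPM in the lactate-treated libraries against 261 and 179 CPM in controls, with the treated values between the control values. Nop2 had 361 and 318 CPM against 349.6 and 269, and Nop56 491 and 585 CPM against 501 and 498. For these 3 genes the groups overlapped, and the log2FC were -0.06 (95% interval -1.01 to 0.90), 0.14 (-0.76 to 1.05) and 0.11 (-0.86 to 1.09).

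The control libraries of Npm1 and Ncl stood further apart than the treated ones. Npm1 had 1119.7 and 1479.6 CPM in lactate-treated and 396 and 1627 CPM in control MB, and Ncl 946 and 1647 against 457 and 1576. In both genes control replicate 1 was far below the other 3 libraries. Utp20, with the highest log2FC, had 63.9 and 168 CPM against 92.5 and 87.9, the treated libraries lying on both sides of the controls. Ubtf had 124 and 145 CPM against 166 and 146, where the higher treated and the lower control value are nearly equal (log2FC -0.20, 95% interval -1.11 to 0.71). Nat10 had 88.6 and 88.2 CPM against 126 and 91.6 (log2FC -0.28, 95% interval -1.19 to 0.62).

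By role, the 4 genes of RNA polymerase I had log2FC between -0.23 and -0.08, all below 0. The 3 genes of the box C/D snoRNP lay between 0.07 and 0.13, all above 0. Each of these log2FC was smaller in size than its SE. With libraries matched by replicate number, both replicates changed in the same direction for 1 of the 4 and 0 of the 3 genes. A difference between roles was not tested. Myc, a group of its own, was below 0, and the other 4 groups held values of both signs. The wider lists of the pathway had 0 of 114 genes called in either direction and a median log2FC of 0.09. The 10 proliferation markers, which were also tested, had 0 calls and a median log2FC of -0.03.

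In GAS, the 34 genes were all counted in each of the 3 libraries. Their mean RPKM ran from 1.37 for Utp15 to 31.4 for Npm1, with a median of 6.73. Among the 9874 genes with a mean RPKM over 1 in GAS, the 34 genes lay between the 9.64th and the 89.4th percentile with a median at the 61.5th, and 21 of them were in the upper 50%. The libraries agreed closely, with a median coefficient of variation of 5.20% and a highest of 29.9%, that of Myc. GAS was sequenced with another protocol than the cultured cells and its levels were not tested against them.

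By RPKM, the order of the genes in GAS was led by Npm1 and Nop10. Npm1 had 31.4 ± 1.81 RPKM (SD, n = 3) and Nop10 29.1 ± 1.84 RPKM (SD, n = 3), and their ranges of mean ± SD overlapped. Utp3 had 16.0 ± 0.819 RPKM and Ncl 15.7 ± 0.790 RPKM (SD, n = 3), and these ranges overlapped as well. At the lower end stood Utp15 with 1.37 ± 0.166 RPKM, Nop58 with 1.39 ± 0.00488 RPKM, Utp18 with 1.67 ± 0.0544 RPKM and Wdr12 with 1.71 ± 0.0342 RPKM (SD, n = 3). RPKM divides by the exonic length, which was 10758 bases for Nop58, 11955 for Wdr12 and 1109 for Nop10. In CPM, Nop58 was above Fbl in GAS, at 15.0 against 11.9, while in RPKM it was below. Utp15 and Utp18 were low on both scales, at 8.01 and 6.01 CPM. Myc had 4.62, 4.82 and 7.67 CPM, or 2.10 ± 0.628 RPKM (SD, n = 3), which placed it 29th of the 34 genes in GAS, while it was the ninth in MB.

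The genes of RNA polymerase I in GAS had a median of 5.56 RPKM, with Rrn3 at 11.4 ± 0.428 and Polr1b at 2.78 ± 0.175 RPKM (SD, n = 3). Fbl had 2.82 ± 0.306 and Dkc1 6.69 ± 0.654 RPKM (SD, n = 3), the enzymes of the snoRNPs for methylation and pseudouridylation. The nucleolar organizers had the highest median of the role groups, 11.1 RPKM, and the box C/D snoRNP a median of 2.82 RPKM over its 3 genes. Myc, a group of its own, was at 2.10 RPKM.

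In MB the median of the 34 genes was 42.1 RPKM, in lactate-treated MB 44.5 RPKM and in MT 10.4 RPKM. All 34 were above the 50th percentile of genes with a mean RPKM over 1 in MB, with a median at the 86.7th, against 28 of 34 and a median at the 68.9th percentile in MT. The genes ranked numbered 10475 in MB and 13371 in MT, so the percentiles refer to unlike sets. The order of the genes was kept to a large part, with a Spearman rho across the 34 genes of 0.86 between MB and MT, 0.84 between MT and GAS and 0.72 between MB and GAS. These rho values describe 34 genes whose levels share gene lengths and annotation. Nop10 was the first in order in MT and the fourth in MB, at 106 ± 47.6 and 114 ± 6.45 RPKM (SD, n = 2), and Ddx21 was the 22nd in MT and the 13th in MB, at 8.63 ± 5.91 and 55.8 ± 20.8 RPKM (SD, n = 2).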

How the data were processed

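RNA sequencing of 9 mouse libraries was used. The submitters' processing notes name FastQC 0.11.0, Trim Galore 0.6.6, HISAT2 2.2.1 and Subread 2.0.1, and the study aligned reads to mm10 and counted them with featureCounts. What the authors deposited are raw read counts for each gene, not normalized. Annotation release, strand setting and treatment of reads with several alignments are not given in the sources used here. Gene names, coordinates and exonic lengths came from GENCODE M21, on the same assembly, and promoter windows from RefSeq (GRCm38.p6). GC content is the mean over annotated transcripts of a gene.

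CPM used TMM normalization, separately for GAS and for cultured cells, and RPKM divided them by exonic length. MT against MB, and lactate-treated against control MB, were each fitted on the libraries compared (2 against 2) with filterByExpr, TMM, edgeR's quasi-likelihood test and Benjamini-Hochberg adjustment over all genes tested. Genes were called at an adjusted p under 0.05 and an absolute log2FC over 0.5, or, by the study's rule for lactate, a nominal p under 0.01. Intervals of log2FC are 95% intervals from the standard error of the fit. GAS was described and not tested, because its libraries were made with another protocol. Floors of 3 counts cover counting error only.

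All 34 genes are named, with library values for the largest and smallest log2FC of each role and for further genes chosen after their values were seen. Of each wider list up to 3 called genes with the largest absolute log2FC are named, and every MYC network partner. The genes and lists were chosen with earlier results of these data known, and 2 of the 126 genes of the wider lists were not found in the files by symbol. Overlaps of exons and processed pseudogenes were taken from GENCODE M21, the latter at 95% identity over at least 200 bases.

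As alternatives, the DESeq2 Wald test, RLE size factors, a minimum of 10 counts in every library, no filter, the replicate number as a block, all cultured libraries in one fit, ribosomal RNA genes left out, adjusted p alone, other scalings of GAS and leaving out each library were tried. A block with crossed numbers was added after the data were seen. Both edgeR fits were checked on simulated counts in which 200 genes changed. Versions were edgeR 4.0.16, limma 3.58.1 and DESeq2 1.42.0 in R 4.3.3, and matplotlib 3.10.9, pandas 2.3.3 and numpy 2.4.6 in Python 3.11.15.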

Additional observations from a re-analysis of the deposited data

How the results depend on the processing

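In MT against MB, the number of the 34 genes called lower lay between 18 and 28 with every library kept and between 2 and 27 when libraries were left out one at a time, and 0 genes of the set were called higher in any of these fits. Their median log2FC ranged from -2.36 to -1.56 without single libraries. Over all genes, leaving out libraries gave between 962 (without MT replicate 1) and 4118 genes higher (without MT replicate 2) and between 270 (without MT replicate 1) and 1570 lower (without MB replicate 2), and a filter of at least 10 counts in every library gave 766 higher. MT replicate 1 accounted for the lowest counts of lower genes, and 2 of the 34 genes were called under each alternative, while 4 (Nop10, Rrn3, Rrp1 and Utp3) were called under none. The cause of these shifts was not tested.

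MB, MT and lactate-treated MB share replicate numbers, but with 2 pairs nothing in the labels shows that a number marks a shared culture or day. Deviations of same-numbered libraries correlated across genes with r = -0.13 between MB and MT and r = 0.70 between MB and lactate-treated MB. With the replicate number as a block, 1447 genes were higher and 824 lower in MT and 21 of the 34 genes were lower, Nop58 being gained and Bysl lost, with a median log2FC of -1.78. With crossed numbers as a block, 1192 genes were higher, 867 lower and 18 of the 34 lower.

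For lactate, 0 of the 34 genes passed the adjusted or the nominal rule under any alternative. Over all genes, the nominal rule gave 1 gene with DESeq2, 1 without a filter on low counts, 13 with the replicate block and between 1 and 177 without single libraries, and the adjusted rule gave between 0 and 2 genes higher without single libraries. The block gave 166 genes at an unadjusted p under 0.05, with 0 of the 34 among them. The median log2FC of the 34 genes lay between -0.21 and 0.12 without single libraries.

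In GAS, the median RPKM of the 34 genes lay between 6.50 and 6.82 without single libraries. With 2 libraries a group, genes that changed by 1 on the log2 scale were rarely called at the spread of these data, and single libraries decide the number of calls.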
